A study of Mus musculus with 14 samples.

Results

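The genes described here build the mitotic spindle, move and separate chromosomes, and divide the cell in cytokinesis. They were examined in 4T1, a mammary tumor cell line from a BALB/c mouse, after knockdown or over-expression of Cnot7, whose product, within the CCR4-NOT complex, shortens the poly(A) tails of mRNAs. The set was a list of 42 genes taken by name, with no measured value in the rule, although earlier results of these data were known when it was drawn up. Of these, 41 were measured by a probe set that mapped to exactly 1 gene symbol, out of 19938 genes measured in that way; Ccnb1 had no such probe set and was not measured here. Where a gene had several probe sets, the one with the highest mean was used, which concerned 1 member (Top2a).

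RNA from 14 samples in 5 groups was measured on single-color Affymetrix Mouse Gene 1.0 ST arrays. All groups were lentivirally transduced 4T1 cells. The controls were the vector control (n = 3) for cells expressing human FLAG-tagged CNOT7 from a murine Pol2 promoter (n = 3), both selected with blasticidin, and a scrambled hairpin, shScramble (n = 3), for the short hairpin RNAs sh74 (n = 2) and sh75 (n = 3) against Cnot7, selected with puromycin. The design text gives 3 biological replicates for each hairpin, while 2 samples carry the sh74 label here. Separate cultures are not stated, so the p-values here reflect only the spread among these samples, which may be technical. In the sample titles, replicates 2 and 3 of sh75 share the number 5, as do replicates 2 and 3 with CNOT7. The labels do not say what this number marks, so these groups may hold fewer independent samples than listed. Both hairpins were compared with the same shScramble samples.

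In a dividing cell, cyclin-dependent kinase 1 with its A- and B-type cyclins, together with Aurora and Polo-like kinases, drives entry into mitosis. The spindle checkpoint then holds back the anaphase-promoting complex until kinetochores are attached, after which securin is destroyed and separase cuts the cohesin that joins sister chromatids. At the end of mitosis the central spindle, organized by the centralspindlin complex, positions the contractile ring that divides the cytoplasm. Transcripts of most of these genes accumulate in the G2 and M phases of cycling cells.

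Cnot7 itself was examined first as a check of the labels. Its log2 intensity was 10.44, 10.33 and 10.20 in shScramble, 8.71 and 9.33 in sh74, and 7.52, 8.51 and 8.07 in sh75. Every hairpin sample lay below every shScramble sample. With sh75 Cnot7 fell by 2.29 on the log2 scale (SE 0.26, limma adjusted p = 0.00911), which left 20.4% of the shScramble signal, and with sh74 the change was -1.31 (SE 0.29, limma adjusted p = 0.279), which left 40.4%. Vector control samples read 10.07, 10.52 and 10.15 and CNOT7-expressing samples 10.64, 10.02 and 10.08; the mouse probes need not detect the human cDNA. All 41 members lay above a log2 intensity of 4.89, the 90th percentile of 1035 olfactory receptor probe sets taken as a background, and array medians ranged from 6.31 to 6.38. Markers of immune cells, endothelial cells and fibroblasts had mean log2 intensities of 4.89 to 5.48 in all 14 samples, with 6 of 11, 3 of 7 and 3 of 7 genes at or under that background. Single markers lay well above it, among them Cd14 (group means of 7.19 to 8.42), Csf1r (6.10 to 6.53) and Pdgfra (7.58 to 8.36).

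A shared sequence feature of these genes was visible at their promoters. RefSeq windows on GRCm38.p6, from 250 bases before to 50 bases after each start site, were at hand for 36 of the 42 members. TTTGAA, the core of the cell cycle homology region that binds the MuvB proteins of the DREAM complex, occurred on either strand in a window of 26 of 36 members (72.2%), compared with 20.2% of 27025 genes with a window. CCAAT, the motif of the factor NF-Y, occurred in 26 members (72.2%, against 41.1% of all genes), and 23 members (63.9%) held both in 1 window, against 7.97% of all genes. From 30 bases before the start site on, TTTGAA was found in 23 members (63.9%) and in 4.45% of all genes. The less common form TTCGAA was found in 3 members (8.33%, against 1.8% of all genes). Motifs of E2F factors were rare, TTTCGCGC and TTTGGCGC each being found in 1 member (2.78%) and in 0.374% and 0.585% of all genes. A match of letters is a description and shows no binding. The windows below are those of 7 members with TTTGAA that are described with the hairpin comparisons, and of Pttg1 and Mad2l1, whose windows held neither motif and whose log2 values differed between the hairpins by -0.38 (SE 0.15) and 0.44 (SE 0.26). They were chosen after the values were seen and run from 30 bases before to 50 bases after the start site, written 5′ to 3′ on the strand of the gene, with matches to TTTGAA or CCAAT in capitals (TTCAAA and ATTGG where the match is on the opposite strand). They lay at chr9:61946750-61946829 (Kif23), chr15:99651607-99651686 (Racgap1), chr9:22389157-22389236 (Anln), chr2:172370521-172370600 (Aurka), chr11:43425932-43426011 (Pttg1) and chr4:118437294-118437373 (Cdc20) on the minus strand, and at chr7:122159405-122159484 (Plk1), chr6:66535191-66535270 (Mad2l1) and chr15:102296263-102296342 (Espl1) on the plus strand. The whole window of Mki67, chr7:135716330-135716629 on the minus strand, is shown because both of its TTTGAA matches lay further upstream, at -116 and -98 from the start site.
Kif23: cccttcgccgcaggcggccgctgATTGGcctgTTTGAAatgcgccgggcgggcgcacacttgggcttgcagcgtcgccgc
Racgap1: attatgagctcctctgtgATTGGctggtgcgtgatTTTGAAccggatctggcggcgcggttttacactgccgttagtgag
Anln: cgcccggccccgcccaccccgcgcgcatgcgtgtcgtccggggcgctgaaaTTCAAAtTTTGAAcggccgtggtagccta
Aurka: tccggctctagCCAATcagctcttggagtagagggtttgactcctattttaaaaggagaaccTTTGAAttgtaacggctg
Plk1: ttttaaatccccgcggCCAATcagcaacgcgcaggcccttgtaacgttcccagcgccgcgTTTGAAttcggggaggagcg
Espl1: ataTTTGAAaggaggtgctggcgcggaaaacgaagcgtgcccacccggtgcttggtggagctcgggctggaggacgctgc
Cdc20: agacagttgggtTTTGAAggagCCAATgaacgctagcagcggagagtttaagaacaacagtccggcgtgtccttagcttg
Pttg1: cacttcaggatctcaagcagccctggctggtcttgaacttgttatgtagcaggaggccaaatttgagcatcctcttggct
Mad2l1: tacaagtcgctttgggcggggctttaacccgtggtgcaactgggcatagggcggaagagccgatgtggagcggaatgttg
Mki67: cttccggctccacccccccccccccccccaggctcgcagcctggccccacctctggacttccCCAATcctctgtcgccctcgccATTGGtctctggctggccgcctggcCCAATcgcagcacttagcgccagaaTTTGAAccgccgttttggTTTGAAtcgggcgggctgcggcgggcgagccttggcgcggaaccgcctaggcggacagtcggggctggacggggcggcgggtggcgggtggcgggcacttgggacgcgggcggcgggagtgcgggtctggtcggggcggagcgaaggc

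In Kif23, Racgap1, Aurka and Plk1 a CCAAT match stood upstream of TTTGAA in the part shown, in Cdc20 the order there was the opposite, and Anln carried both orientations of TTTGAA side by side. Outside the part shown, Cdc20 had a further CCAAT match at -53, upstream of its TTTGAA at -18. The 26 members with TTTGAA had a median log2 change of -0.17 with sh75 against shScramble (23 of 26 lower) and the 9 measured members with a window and without the motif one of -0.08 (7 of 9 lower). With sh74 the same medians were -0.03 and 0.08. In the vector control, set against the same shScramble samples, they were -0.08 (21 of 26 lower) and -0.02 (5 of 9 lower).

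The level of the whole set differed little between groups. Taken as the mean over the members of each gene's log2 value minus its mean over all samples, it was -0.01, 0.03 and 0.11 in shScramble, 0.01 and 0.03 in sh74, -0.02, -0.22 and -0.07 in sh75, -0.05, 0.03 and -0.00 in the vector control, and 0.11, -0.07 and 0.11 with CNOT7. All 3 sh75 samples lay below all 3 shScramble samples, and sh74 lay within the shScramble range. The sample with the lowest level was sh75 replicate 2, in which 18 of 41 members had their lowest value over the 14 samples and 2 of 41 stood above their own mean. In bulk RNA a smaller share of cells in mitosis and less transcript per mitotic cell cannot be told apart.

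**Figure D1:**
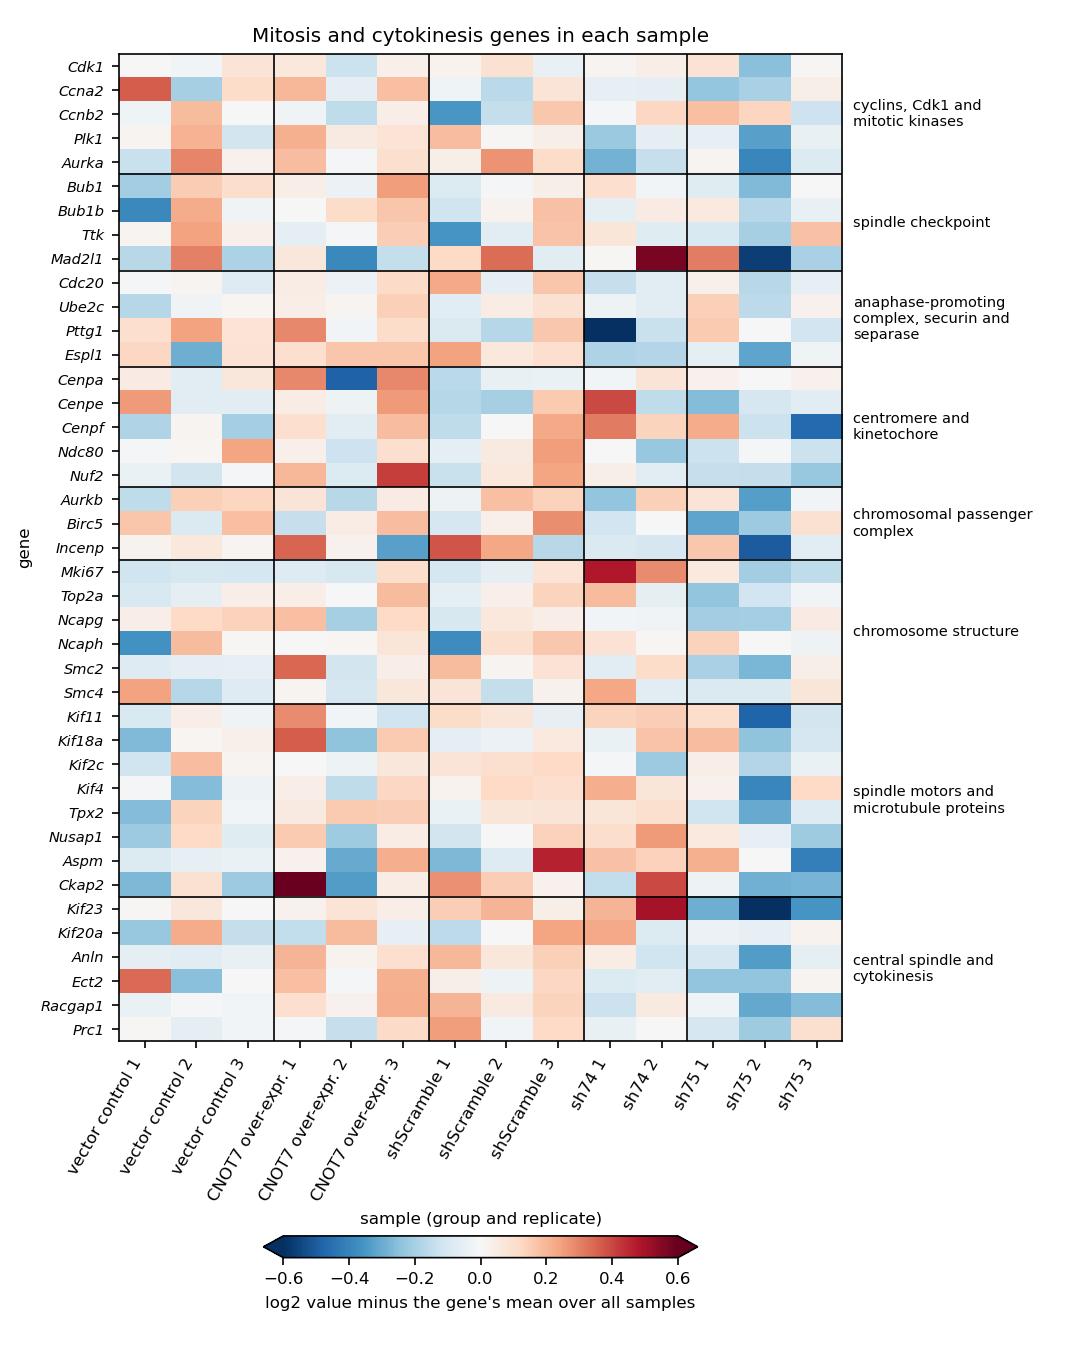
Log2 intensity of the 41 measured members (rows, grouped by role) in the 14 samples (columns, by group and replicate), shown as the difference from each gene's mean over all samples, with the color scale ending at 0.6 in both directions. In sh75 replicate 2 nearly the whole column lies below the mean (2 of 41 members above it), and Kif23 is low in all 3 sh75 samples and high in both sh74 samples.

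Samples also differed in the balance of epithelial and mesenchymal genes, within groups more than between them. The score of epithelial minus mesenchymal markers was 0.78, 1.29 and -0.86 in shScramble, -1.46 and 1.26 in sh74, and 0.76, -1.05 and -0.90 in sh75. In sh75 and shScramble the score followed the number in the sample titles. It was 0.76 and 1.29 for number 4, and -1.05, -0.90 and -0.86 for number 5. With CNOT7 the score was likewise positive for number 4 and negative for number 5. Numbers 1 and 7 shared no such level, at -1.46 and 1.26 in sh74 against 0.01 and -0.295 in the vector control. The sample with the lowest member level, sh75 replicate 2, had a score of -1.05, and shScramble replicate 3, which had the highest member level of its group, one of -0.86. Number 5 marked 2 sh75 samples and 1 shScramble sample, so the score was not evenly spread over these groups. Between sh75 and shScramble the members' median difference was -0.24 within number 5 and -0.06 within number 4. Over samples the mean log2 intensity ranged from 8.63 to 10.51 for the 16 epithelial genes and from 6.86 to 7.89 for the 16 mesenchymal genes, of which 0 and 2 lay at or under the background. Of the epithelial genes 14 of 16 were lower with sh75 and 13 of 16 with sh74. The part of this balance in the members' values was addressed by 1 fit with the score as a covariate, in which the median change of the members with sh75 was -0.14.

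**Figure D2:**
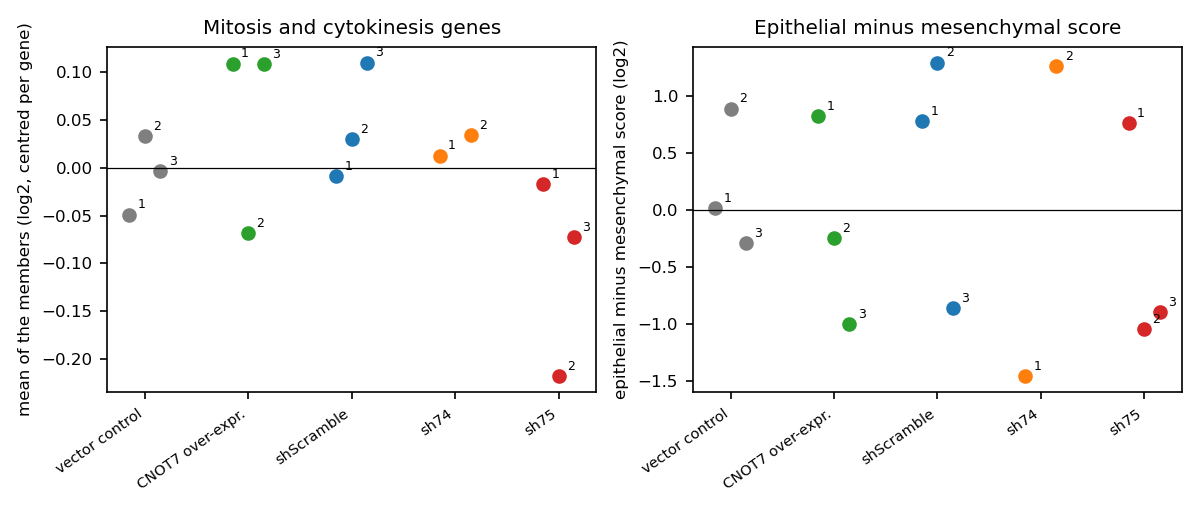
Mean level of the members (left, log2, centred per gene) and score of epithelial minus mesenchymal markers (right, log2) in each sample, by group, with points numbered by replicate. The sh75 samples lie at -0.02, -0.22 and -0.07 on the left, below the 3 shScramble samples, while on the right every group spans more than 1 log2 unit.

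The comparison of sh75 with shScramble addressed how these transcripts differed between the samples with this hairpin and their control. Of the 41 members, 36 lay lower and 5 higher in sh75, with a median log2 change of -0.16, whereas over all 21789 probe sets tested 50.2% were lower and the median was -0.00. No member passed an adjusted p of 0.05 by limma (0 of 41, against 0.0918% of all probe sets). At an unadjusted p under 0.05, 6 members were lower and 0 higher, against 3.82% and 4.44% of all probe sets. Ranges did not overlap for 10 members that were lower and 1 that was higher, against 6.76% and 6.71% of all probe sets. Without sh75 replicate 2 the median was -0.09, with 32 of 41 members lower. In the vector control, which has no hairpin, 30 of 41 members were lower than in the same shScramble samples (median -0.07).

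With sh74 the set was evenly divided. Of 41 members 21 were lower and 20 higher, with a median of -0.02, and over all probe sets 48.7% were lower with a median of 0.00. None was called by limma (0 of 41, against 0.00918% of all probe sets), while 4 members were lower (3.55% of all probe sets) and 1 higher (3.78%) at an unadjusted p under 0.05. For 8 members the sh74 samples both lay below the shScramble range (10.6% of all probe sets), and for 4 they lay above it (11.4%). The median was 0.01 without shScramble replicate 2, 0.04 without shScramble replicate 3 and -0.04 without shScramble replicate 1.

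**Figure D3:**
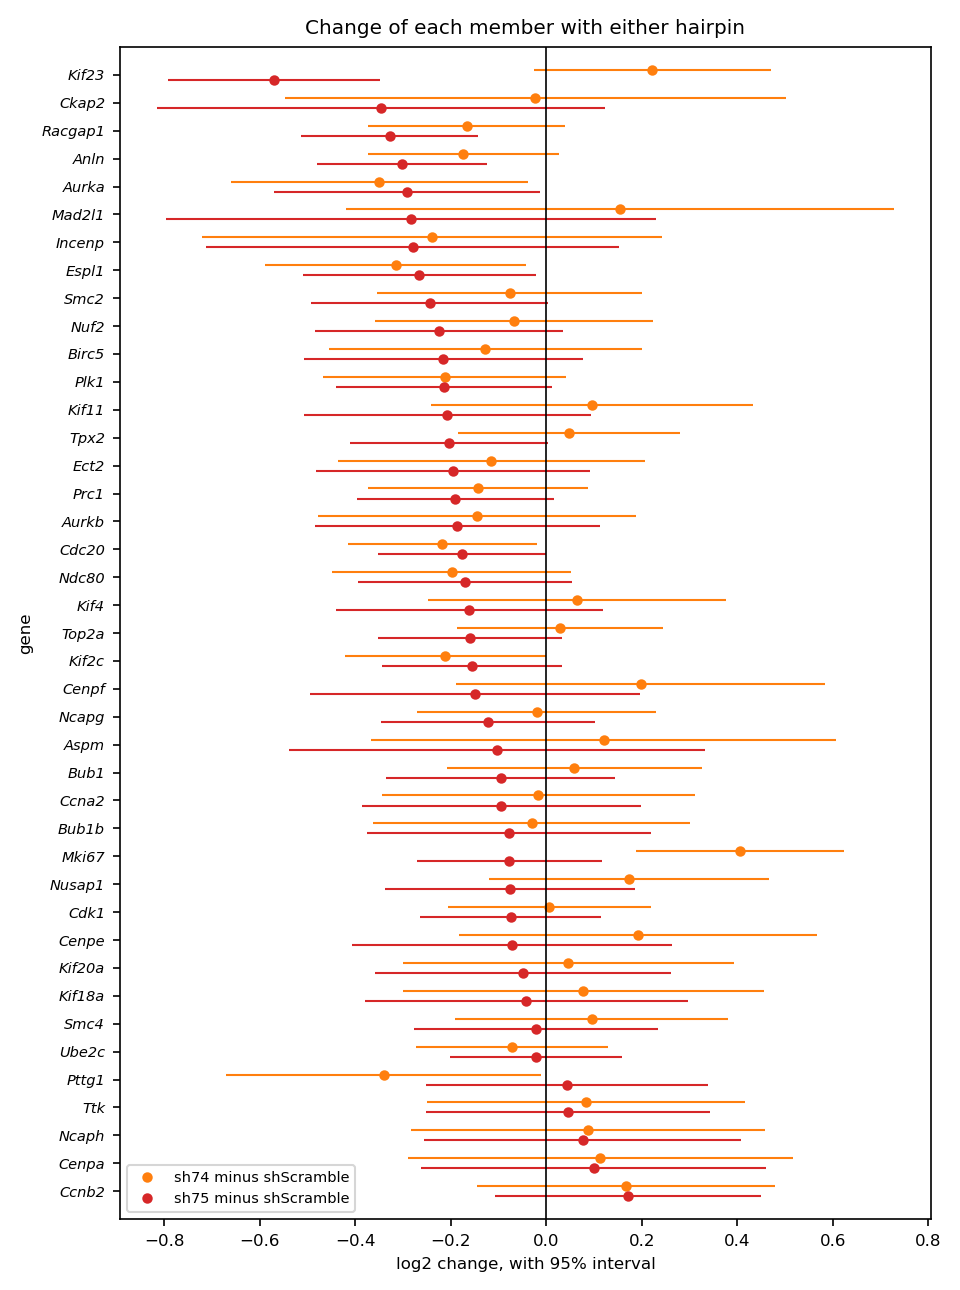
Log2 change of each measured member with sh74 and with sh75, both against the same shScramble samples (points), with 95% intervals from limma (lines), ordered by the change with sh75. Most sh75 points lie left of 0 (36 of 41) and the sh74 points are spread on both sides (21 lower, 20 higher), with Kif23 at -0.57 for sh75 and 0.22 for sh74 and Mki67 at -0.08 and 0.41.

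The central spindle and cytokinesis genes had the lowest median of the 8 roles with sh75, -0.25, with 6 of 6 lower and 3 lower at an unadjusted p under 0.05 (3.82% of all probe sets). In the vector control, set against the same shScramble samples, 6 of 6 were lower too, with a median of -0.12 and 1 at an unadjusted p under 0.05 (1.94% of all probe sets). Kif23, the kinesin subunit of centralspindlin, measured 11.10, 11.15 and 10.98 in shScramble, 11.15 and 11.44 in sh74, 10.66, 10.27 and 10.59 in sh75, 10.95, 11.02 and 10.95 in the vector control and 10.97, 11.03 and 10.99 with CNOT7. All sh75 samples lay below, and both sh74 samples above, every other sample of the series. The sh74 replicate nearest to shScramble exceeded its highest sample by less than the second decimal shows. Against shScramble, the difference of Kif23 was -0.57 with sh75 (SE 0.10, 95% interval -0.79 to -0.35, limma adjusted p = 0.0958), a level 1.48-fold lower, and 0.22 with sh74 (SE 0.11, 95% interval -0.03 to 0.47, limma adjusted p = 0.719).

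Racgap1, the partner of Kif23 in centralspindlin, measured 10.64, 10.49 and 10.57 in shScramble, 10.31 and 10.49 in sh74, 10.41, 10.13 and 10.18 in sh75, 10.40, 10.43 and 10.42 in the vector control and 10.54, 10.47 and 10.66 with CNOT7. Its sh75 samples all lay below the shScramble samples (-0.33, SE 0.08, limma adjusted p = 0.305), and its sh74 samples below that range too, replicate 2 by little (-0.17, SE 0.09). Anln, encoding the contractile ring scaffold anillin, measured 11.89, 11.77 and 11.84 in shScramble, 11.74 and 11.58 in sh74, 11.59, 11.36 and 11.64 in sh75, 11.64, 11.63 and 11.65 in the vector control and 11.90, 11.72 and 11.80 with CNOT7. Both hairpins read below shScramble without overlap, by -0.30 with sh75 (SE 0.08, limma adjusted p = 0.326) and -0.17 with sh74 (SE 0.09), but the vector control also lay below shScramble. The other members of this role were Ect2, an exchange factor needed for cytokinesis, Prc1, which bundles antiparallel microtubules, and the kinesin Kif20a, with changes of -0.19 (SE 0.13), -0.19 (SE 0.09) and -0.05 (SE 0.14) with sh75.

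**Figure D4:**
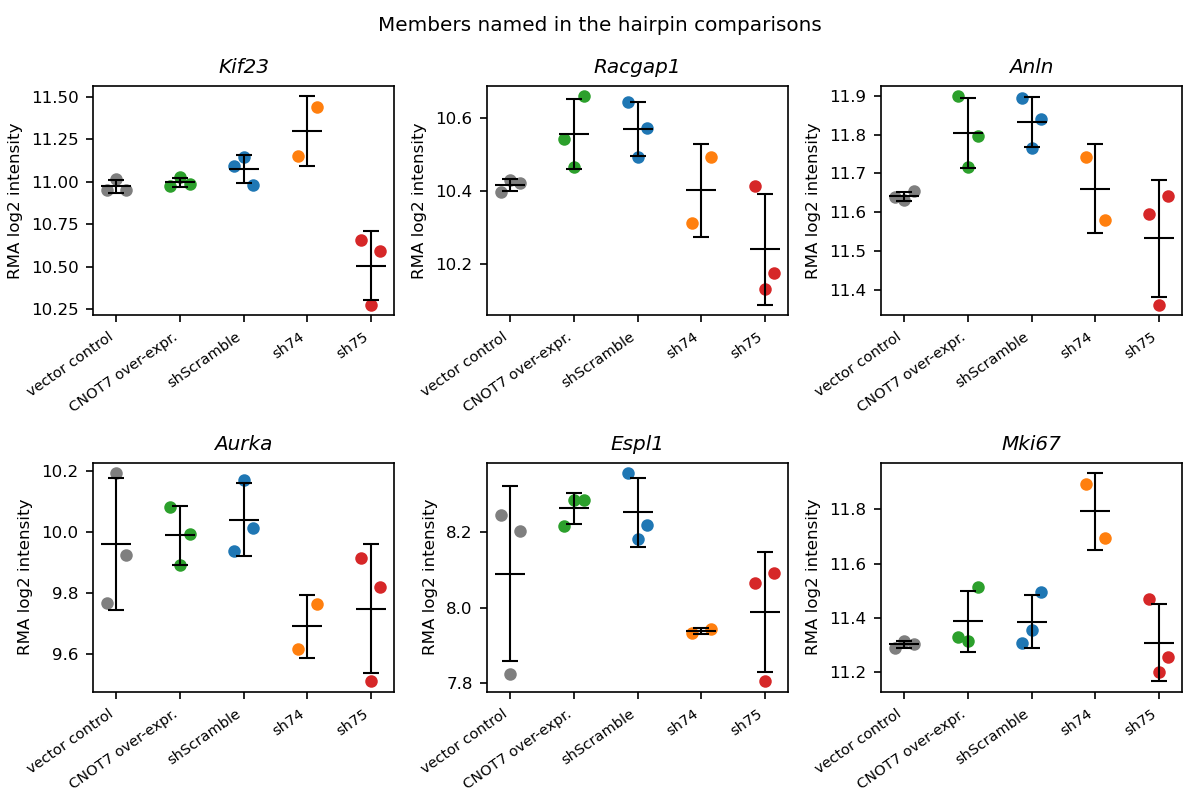
RMA log2 intensity of 6 members in every sample (points) by group, with the group mean and SD (horizontal mark and bar; n = 3, and n = 2 for sh74). For Kif23 the sh75 samples (10.27 to 10.66) lie lowest and the sh74 samples (11.15 and 11.44) highest, while Aurka and Espl1 are lower than shScramble with both hairpins and Mki67 is highest in sh74 (11.89 and 11.69). Vertical axes differ between panels and do not start at 0.

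Among the cyclins, Cdk1 and mitotic kinases, 4 of 5 were lower with sh75 (median -0.09) and 3 of 5 with sh74 (median -0.02). Aurka, the kinase of the spindle poles, measured 9.94, 10.17 and 10.01 in shScramble, 9.62 and 9.76 in sh74, 9.91, 9.51 and 9.82 in sh75, 9.77, 10.19 and 9.93 in the vector control and 10.08, 9.89 and 9.99 with CNOT7. Both hairpins lay below shScramble without overlap, although vector control replicate 1 read as low as some of the hairpin samples. The changes were -0.29 with sh75 (SE 0.13, limma adjusted p = 0.590) and -0.35 with sh74 (SE 0.14, limma adjusted p = 0.641). Plk1, the Polo-like kinase, had changes of -0.21 (SE 0.10) with sh75 and -0.21 (SE 0.12) with sh74. Ccnb2, a B-type cyclin, had the smallest p among the 5 members that were higher with sh75 (0.17, SE 0.13) and measured 11.35, 11.56 and 11.86 in shScramble, 11.69 and 11.83 in sh74, 11.88, 11.83 and 11.58 in sh75, 11.67, 11.89 and 11.70 in the vector control and 11.68, 11.55 and 11.74 with CNOT7. Its groups overlapped, the shScramble samples alone spanning 11.35 to 11.86. Cdk1 had changes of -0.07 (SE 0.09) with sh75 and 0.01 (SE 0.10) with sh74.

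Of the anaphase-promoting complex, securin and separase genes, 4 of 4 were lower with sh74 (median -0.27) and 3 of 4 with sh75 (median -0.10). Against the same shScramble samples, 3 of 4 were lower in the vector control too (median -0.11). Espl1, which encodes separase, measured 8.36, 8.18 and 8.22 in shScramble, 7.93 and 7.94 in sh74, 8.07, 7.80 and 8.09 in sh75, 8.24, 7.82 and 8.20 in the vector control and 8.22, 8.29 and 8.29 with CNOT7. Sh74 and sh75 lay below shScramble without overlap, by -0.32 (SE 0.12, limma adjusted p = 0.638) and -0.27 (SE 0.11, limma adjusted p = 0.570), while vector control replicate 2 was as low as they were. Cdc20, the activator of the complex in mitosis, measured 9.91, 9.63 and 9.85 in shScramble, 9.54 and 9.61 in sh74, 9.71, 9.52 and 9.63 in sh75, 9.67, 9.70 and 9.60 in the vector control and 9.72, 9.65 and 9.79 with CNOT7. The sh74 samples lay below shScramble (-0.22, SE 0.09, limma adjusted p = 0.648), whereas with sh75 the ranges overlapped (-0.18, SE 0.08, limma adjusted p = 0.605). Pttg1, or securin, named here after its values were seen, read 7.79 and 8.27 in sh74 against 8.31, 8.23 and 8.56 in shScramble and 8.55, 8.40 and 8.28 in sh75. Sh74 replicate 1 was the lowest sample and replicate 2 lay inside the shScramble range. Ube2c, the ubiquitin-conjugating enzyme of the complex, had the narrowest range of all members over the 14 samples (0.31).

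The spindle checkpoint genes had medians of -0.09 with sh75 (3 of 4 lower) and 0.07 with sh74 (1 of 4 lower). Mad2l1, which encodes the checkpoint protein MAD2, varied widely among samples of 1 group, from 9.66 to 10.54 in sh75, and its changes were -0.28 (SE 0.23) with sh75 and 0.16 (SE 0.26) with sh74. Bub1, a checkpoint kinase, had changes of -0.10 (SE 0.11) and 0.06 (SE 0.12).

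At the centromere and kinetochore 4 of 5 genes were lower with sh75 (median -0.15) and 2 of 5 with sh74 (median 0.11). Nuf2 and Ndc80, subunits of the complex that holds microtubules, had changes of -0.22 (SE 0.12) and -0.17 (SE 0.10) with sh75. Cenpa, the centromeric histone variant, measured 10.51, 10.62 and 10.63 in shScramble, 10.65 and 10.75 in sh74, 10.69, 10.67 and 10.69 in sh75, 10.72, 10.61 and 10.74 in the vector control and 10.96, 10.18 and 10.96 with CNOT7. Its hairpin samples lay just above the shScramble samples, at changes of 0.10 (SE 0.16) with sh75 and 0.11 (SE 0.18) with sh74, and CNOT7 replicate 2 stood well below all others. The chromosomal passenger genes Aurkb, Birc5 and Incenp, which encode the kinase complex that corrects attachments and later sits at the midzone, were lower with either hairpin in 3 of 3, with medians of -0.22 with sh75 and -0.14 with sh74. In the vector control 2 of 3 were lower than in shScramble (median -0.06), and with CNOT7 3 of 3 were lower than in the vector control (median -0.05).

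In the chromosome structure role 5 of 6 genes were lower with sh75 (median -0.10) and 2 of 6 with sh74 (median 0.06). The vector control had 4 of 6 lower than the same shScramble samples (median -0.04). Mki67, which encodes the chromosome-coating proliferation marker Ki-67, measured 11.31, 11.36 and 11.49 in shScramble, 11.89 and 11.69 in sh74, 11.47, 11.20 and 11.26 in sh75, 11.29, 11.32 and 11.30 in the vector control and 11.33, 11.32 and 11.52 with CNOT7. The 2 sh74 samples were the highest of the series, 0.41 above shScramble (SE 0.10, limma adjusted p = 0.326), and sh75 overlapped shScramble (-0.08, SE 0.09, limma adjusted p = 0.872). Among condensin subunits, Smc2 had a change of -0.24 (SE 0.11) with sh75. Ncaph measured 10.00, 10.48 and 10.54 in shScramble, 10.47 and 10.39 in sh74, 10.52, 10.38 and 10.35 in sh75, 10.02, 10.57 and 10.39 in the vector control and 10.38, 10.39 and 10.45 with CNOT7, with shScramble replicate 1 and vector control replicate 1 apart from the rest, and its change with sh75 was 0.08 (SE 0.15). That sign turned to -0.09 without shScramble replicate 1. Top2a, the topoisomerase that untangles sister chromatids, had a change of -0.16 (SE 0.09) with sh75 by the probe set used and -0.45 by a second, dimmer one.

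All 8 spindle motors and microtubule proteins were lower with sh75 (median -0.16), against 2 of 8 with sh74 (median 0.07). In the vector control all 8 were likewise lower than in the same shScramble samples (median -0.08). Tpx2, which activates Aurka on the spindle, and Kif2c, a kinesin that depolymerizes microtubules, had the smallest p with sh75, at -0.20 (SE 0.09) and -0.16 (SE 0.09), both without overlap. With sh74 their changes were 0.05 (SE 0.11) and -0.21 (SE 0.10). Nusap1, a microtubule-bundling protein, was among the members with the smallest p above shScramble with sh74 (0.17, SE 0.13) and measured 9.37, 9.48 and 9.62 in shScramble, 9.59 and 9.74 in sh74, 9.55, 9.43 and 9.27 in sh75, 9.26, 9.61 and 9.41 in the vector control and 9.64, 9.27 and 9.53 with CNOT7. The sh74 samples overlapped shScramble. Ckap2, a microtubule-associated protein, had a change of -0.35 with sh75 (SE 0.21), with the shScramble samples at 9.68, 9.55 and 9.43 and the sh75 samples at 9.37, 9.12 and 9.13.

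The hairpins were then compared with each other. Kif23 was the member called (1 of 41, against 0.174% of all probe sets by limma): it stood 0.79 higher in sh74 than in sh75 (SE 0.11, 95% interval 0.54 to 1.04, limma adjusted p = 0.0308). The call was lost without sh74 replicate 2 (0.65, limma adjusted p = 0.0854) or sh75 replicate 3 (0.83, limma adjusted p = 0.0658). Cnot7 differed between the hairpins by 0.98 (SE 0.29, limma adjusted p = 0.279). Of the members 33 were higher in sh74 and 8 lower, with a median of 0.09 against 0.00 over all probe sets, of which 49.2% were lower. At an unadjusted p under 0.05, Kif23, Mki67 (0.48, SE 0.10, limma adjusted p = 0.108) and Tpx2 (0.25, SE 0.11) were higher (3 of 41, against 4.58% of all probe sets) and Pttg1 (-0.38, SE 0.15) was lower (1 of 41, against 4.35%). Ranges did not overlap for 6 members higher in sh74 (11.6% of all probe sets) and 1 lower (11% of all probe sets). The 6 were Kif23, Mki67, Tpx2, Kif11, Nusap1 and Nuf2. Kif2c (-0.06, SE 0.10) and Ube2c (-0.05, SE 0.09) followed Pttg1 on the lower side. Without sh75 replicate 2 the median was 0.05 with 14 members lower, and without sh75 replicate 1 there were 4 lower.

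With CNOT7 over-expression no member was called by limma (0 of 41, against 0% of all probe sets), and 0 were lower or higher at an unadjusted p under 0.05 (1.09% and 1.49% of all probe sets). Of 41 members, 12 were lower and 29 higher than the vector control, with a median of 0.05, against 46.1% lower and a median of 0.01 over all probe sets. For 4 members, Anln, Racgap1, Ube2c and Mki67, the CNOT7 samples all lay above the vector control (4.3% of all probe sets), and for 0 below it (3.42%). Anln had the smallest p (0.16, SE 0.08, 95% interval -0.01 to 0.34), followed by Nuf2 (0.23, SE 0.12) and Tpx2 (0.17, SE 0.09). On the lower side came Ccnb2 (-0.10, SE 0.13), Ndc80 (-0.08, SE 0.10) and Ncapg (-0.07, SE 0.10). Kif23 did not separate, at 0.02 (SE 0.10, 95% interval -0.20 to 0.24). The median was 0.11, with 7 members lower, without CNOT7 replicate 2, and 0.03, with 17 lower, without CNOT7 replicate 1, CNOT7 replicate 3 or vector control replicate 1. Without vector control replicate 3 it was 0.04.

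The controls were set side by side to show how far these genes differ between cells with neither a Cnot7 hairpin nor the CNOT7 cDNA, the vector and the selection drug being different. No member was called by limma (0 of 41, against 0% of all probe sets). In the vector control 30 members were lower and 11 higher than in shScramble, with a median of -0.07, against 52.3% lower and a median of -0.00 over all probe sets. Anln was lower at an unadjusted p under 0.05 (1 of 41, against 1.94% of all probe sets), by -0.19 (SE 0.08, limma adjusted p = 1.0), and 0 were higher (1.77%). Anln, Racgap1, Kif4 and Smc2 lay below shScramble without overlap (4 of 41, against 5.07%) and 0 lay above (4.67%). Racgap1 (-0.15, SE 0.08) and Cdc20 (-0.14, SE 0.08) had the next smallest p, and Ttk (0.18, SE 0.14), Ccnb2 (0.17, SE 0.13) and Pttg1 (0.17, SE 0.13) the smallest on the higher side. The median was -0.02 without vector control replicate 1 and -0.03 without shScramble replicate 3. Racgap1 and Anln were low against shScramble in the vector control as well as with both hairpins, and the shScramble samples are shared by these comparisons.

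Genes of the same pathways outside the set were counted from fixed lists, and 0 of them were called in any comparison. Of 78 other mitosis genes measured, 53 were lower with sh75 (median -0.09) and 40 with sh74 (median -0.01), and in the vector control 48 were lower than in shScramble (median -0.03). In this list Ckap2l, a spindle protein, had the smallest p with sh75 (-0.48, SE 0.08, limma adjusted p = 0.0958), followed by Fzr1, the activator of the anaphase-promoting complex in late mitosis and G1 (0.26, SE 0.08). With sh74 the smallest p belonged to Gtse1 (-0.38, SE 0.09) and Stag1, a cohesin subunit (0.32, SE 0.10). Of 39 DNA replication genes, which act in S phase, 35 were lower with sh75 (median -0.15) and 16 with sh74 (median 0.04), with Rrm1 at -0.26 (SE 0.08) and Orc1 at -0.48 (SE 0.17) with sh75. With CNOT7, 29 of these 39 were lower than in the vector control (median -0.05), and in the vector control 30 were lower than in shScramble (median -0.07).

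Among 23 transcriptional regulators of the cell cycle, 15 were lower with sh75 (median -0.08) and 7 with sh74 (median 0.05). Against the same shScramble samples, 17 of them were lower in the vector control (median -0.07). Lin9, a MuvB subunit, had changes of -0.61 with sh75 (SE 0.13, limma adjusted p = 0.187) and -0.34 with sh74 (SE 0.14), and Myc had changes of -0.61 (SE 0.25) and -0.57 (SE 0.28). Rbl1, encoding the pocket protein p107, had a change of 0.38 (SE 0.16) with sh74. Of 18 G1 cyclins, Cdks and Cdk inhibitors, 7 were lower with sh75 and 4 with sh74, and 13 were lower in the vector control than in shScramble. Cdk6, a G1 kinase, had changes of -0.72 with sh75 (SE 0.16, limma adjusted p = 0.209) and 0.23 with sh74 (SE 0.18), a difference between hairpins of 0.95 (SE 0.18, limma adjusted p = 0.0894). Ccnd3, a D-type cyclin, was at 0.50 (SE 0.17) and 0.58 (SE 0.19), and Cdk2 at 0.26 (SE 0.10) and 0.36 (SE 0.11). The vector control was also above shScramble, by 0.31 (SE 0.17) for Ccnd3 and 0.08 (SE 0.10) for Cdk2.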

How the data were processed

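Single-color Affymetrix Mouse Gene 1.0 ST arrays of 14 samples were analysed. The authors deposited log2 values made with RMA (R package oligo, versions not given in the sources used here), and these were used without further normalization. RMA equalizes the arrays' distributions, so a shift of all genes would be removed. Probe sets were named from the platform annotation, and those with exactly 1 symbol (21789 of 35556) were tested. Groups came from the labels. The 5 comparisons were fitted in 1 linear model over all 5 groups with limma 3.58.1 in R 4.3.3 (9 residual degrees of freedom), two-sided, with Benjamini-Hochberg adjustment over all tested probe sets and calls at an adjusted p under 0.05. The script was tested on simulated data. No replicate block entered the model.

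The members, the gene lists and the rule for named genes were chosen with earlier results of these data known. That rule took members called, the 3 of smallest p in each direction, members at an unadjusted p under 0.05 whose ranges did not overlap, and, by role and list, the 2 of smallest p. "No overlap" means that all samples of 1 group lay beyond all of the other. The number of arrays limits the precision. Alternatives were array-median subtraction, quantile normalization, leaving out dim probe sets, the compared groups alone, an intensity trend with robust spread, array weights, the methods' t-test, the mean of all probe sets, the epithelial minus mesenchymal score as covariate, a replicate block, and leaving out each sample. Members' promoter windows came from RefSeq on GRCm38.p6 and were searched for exact matches on both strands; 6 members had no window.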

Additional observations from a re-analysis of the deposited data

Results flagged for a closer look

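Kif23 differed between the hairpins under the same contrast: its log2 level was 0.79 higher in sh74 than in sh75 (SE 0.11, limma adjusted p = 0.0308). Both sh74 samples lay above all 3 shScramble samples, replicate 1 by less than the second decimal shows. All 3 sh75 samples lay below the shScramble samples. With 1 sample left out, the change of Kif23 ran from 0.08 to 0.37 with sh74 and from -0.64 to -0.45 with sh75. Against shScramble, the 95% interval was -0.03 to 0.47 for sh74 and -0.79 to -0.35 for sh75. Within samples that share the number in their titles, Kif23 in sh75 differed from shScramble by -0.49 (number 4, 1 sample against 1) and -0.55 (number 5, 2 samples against 1). The median over the members was -0.06 for number 4, with 27 of 41 lower, and -0.24 for number 5, with 40 of 41 lower.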

How the results depend on the processing

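Over the alternatives, 213 of the values that answer a comparison were counted as kept and 9 were not. A count was kept within a fixed ratio to its main value. A median was kept within 0.077, the pooled within-group SD of the members' mean level. That allowance exceeds the main medians with sh74, with CNOT7 and between the controls, so a kept median there could change sign. The sh74 median ran from -0.04 to 0.04 with 1 sample left out. The cause of the 9 was not tested except where samples were left out. With array weights, 1 member was called with sh75 (Kif23, -0.61, limma adjusted p = 0.0382) in place of 0, against 35 in place of 20 of all 21789 probe sets. Between the hairpins, 0 members in place of 1 were called with the compared groups alone (Kif23 adjusted p = 0.422), with array weights (0.0536) and with the methods' t-test (0.753). Over all probe sets these settings called 0, 11 and 1 between the hairpins, in place of 38. Leaving out 1 sh75 sample gave 0 to 1 members called. Members lower in sh74 than in sh75 numbered 4 (without sh75 replicate 1) to 14 (without sh75 replicate 2), in place of 8, and members lower with CNOT7 numbered 7 (without CNOT7 replicate 2) to 17, in place of 12. For single members, the sign turned for Ncapg with CNOT7 (0.051 without CNOT7 replicate 2), Ncaph with sh75 (-0.089 under the replicate block, and -0.093 without shScramble replicate 1 to 0.177 without replicate 3), and, between the hairpins, Kif2c (0.049 without sh74 replicate 2) and Ube2c (0.018 without sh75 replicate 1 to -0.131 without replicate 2). With array medians subtracted, 13 members in place of 6 had an unadjusted p under 0.05 with sh75, against 1882 in place of 1800 of all 21789 probe sets. The median change with sh75 was -0.18 to -0.09 with 1 sample left out and -0.19 to -0.14 otherwise.

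A replicate block on the number in the sample titles could be fitted for sh75 against shScramble alone (5 residual degrees of freedom), where the members' median was -0.16 and 0 members were called, and 2 probe sets in place of 20 over all. Deviations of same-numbered samples correlated at 0.41, 0.59 and -0.03, and sh75 replicate 3 did not correlate best with its own number, so the samples share a number and no pairing was assumed. By the methods' t-test at p under 0.01, 0 members passed with sh74, sh75 or CNOT7 or between the hairpins, and 1 between the controls. All probe sets were not counted at that threshold, so these numbers cannot be read as high or low. At p under 0.05 the members numbered, in the same order, 3, 4, 1, 2 and 3, against 1224, 1543, 754, 1331 and 983 of all 21789 probe sets.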
